A study of Mus musculus with 6 samples.

Results

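Lyz1 and Lyz2 are the mouse genes for lysozyme, and they hold 2 of the 19233 rows of a table of polysome-bound mRNA levels in a macrophage line. They were taken by symbol and were chosen by their measured values: the level of each, the sum and the share of each library in both groups. All values of Lyz1 and Lyz2 below are therefore descriptions, with no test. The cells were RAW264.7, a male mouse macrophage-like line, all titled M2, the alternatively activated state. In the treated group, 3 libraries came from cells given BMH-21, a small-molecule inhibitor of RNA polymerase I, at 500 nM for 24 h from 24 h after polarization. In the control group, 3 libraries came from cells given the solvent DMSO. RNA was taken from polysome fractions, in which an mRNA carries several ribosomes, so a level joins the amount of an mRNA with its loading on ribosomes and the parts were not separated. The polarization protocol in the labels is written for bone-marrow-derived macrophages and names both IL-4 and interferon gamma with LPS, and it does not say which was used on the line. The molecule label reads polyadenylated RNA for DMSO replicate 2 and total RNA for the other 5 libraries, although 1 extraction text covers all 6.

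Lysozyme is a small secreted enzyme that cuts the sugar backbone of peptidoglycan, the polymer of bacterial cell walls. It is made on ribosomes bound to the endoplasmic reticulum, is held together by disulfide bonds, and is stored in lysosomes and granules or released. Most mammals have a single gene for it, whereas the mouse has a pair that arose by duplication. Lyz2 encodes the M lysozyme of macrophages and neutrophils, and its locus drives the widely used LysM-Cre allele. Lyz1 encodes the P lysozyme best known from Paneth cells, the granule-bearing cells of the intestinal crypt. Both enzymes cut the same substrate.

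The paralogs lie side by side on the minus strand of chromosome 10 in the GRCm38 (mm10) build, Lyz2 from 117277331 to 117282321 and Lyz1 from 117287797 to 117292868, with 5475 bases between them. In GENCODE M21 each has 1 transcript of 4 exons. Exons 2 and 3 are 165 and 79 bases long in both genes. The transcripts are 1263 bases (Lyz1) and 1316 bases (Lyz2) long, and the coding part is 447 bases in both. The values are per gene over its exons and cannot be assigned to one exon or untranslated region.

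The coding sequences show how closely the members resemble each other and therefore how far their reads can be told apart. Coding bases 1 to 300, which hold 20 of the 22 differences, are printed from the start codon on, 5′ to 3′ on the coding strand, from GENCODE M21 (GRCm38), and capitals mark the bases that differ.
Lyz1: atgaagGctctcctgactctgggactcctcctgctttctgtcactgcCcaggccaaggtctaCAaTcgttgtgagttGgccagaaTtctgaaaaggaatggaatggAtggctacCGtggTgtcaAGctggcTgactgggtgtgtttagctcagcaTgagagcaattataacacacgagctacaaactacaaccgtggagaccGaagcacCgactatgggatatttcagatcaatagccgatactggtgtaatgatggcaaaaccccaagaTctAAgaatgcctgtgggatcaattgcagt
Lyz2: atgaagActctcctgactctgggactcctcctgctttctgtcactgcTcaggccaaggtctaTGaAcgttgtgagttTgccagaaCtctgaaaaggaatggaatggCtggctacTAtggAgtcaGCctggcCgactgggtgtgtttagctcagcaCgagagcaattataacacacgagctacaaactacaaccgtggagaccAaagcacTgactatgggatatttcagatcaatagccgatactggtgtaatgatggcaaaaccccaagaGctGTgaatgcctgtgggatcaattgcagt
Of 447 coding bases, 22 differed, an identity of 95.1%. These fell in 18 of 149 codons, of which 12 encode another residue and 6 the same residue. The longest stretch with no difference was 118 bases, starting at coding base 276. The 3′ untranslated regions, 786 bases in Lyz1 and 790 in Lyz2, were 96.3% identical over their aligned bases.

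A read assigned to one gene must cover a differing base. Of all 50-base windows of the Lyz1 transcript, 16.1% were also in Lyz2. The share fell to 6.22% at 75 bases and 2.06% at 100 bases, and 0 of 1114 windows of 150 bases were shared. No transcript of any other gene among the annotated ones held a 50-base window of either lysozyme. The read length is not given in the sources used here, nor is the rule by which shared reads were split. The split between Lyz1 and Lyz2 is thus less certain than their sum. The table held 2104 values above 0 but under 0.000001, 327 to 377 per library, which are not whole reads scaled by length.

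The upstream windows are shown because the members are neighbours that were both higher in the treated cells. They run from 250 to 51 bases before the RefSeq start of transcription, 5′ to 3′ on the minus strand of GRCm38.p6, at chr10:117292919-117293118 for Lyz1 and chr10:117282323-117282522 for Lyz2. Both members matched an entry of the RefSeq promoter table. Capitals mark bases with no identical partner in the alignment of these windows.
Lyz1: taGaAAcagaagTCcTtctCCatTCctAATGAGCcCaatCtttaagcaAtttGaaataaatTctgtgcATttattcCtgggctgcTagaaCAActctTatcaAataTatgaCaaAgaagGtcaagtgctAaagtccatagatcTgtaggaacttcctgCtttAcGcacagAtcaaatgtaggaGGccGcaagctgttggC
Lyz2: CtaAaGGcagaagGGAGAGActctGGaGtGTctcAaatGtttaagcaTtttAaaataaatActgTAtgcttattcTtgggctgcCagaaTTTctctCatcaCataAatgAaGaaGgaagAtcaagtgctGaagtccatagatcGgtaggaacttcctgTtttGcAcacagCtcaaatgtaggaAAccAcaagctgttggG
Of 190 aligned bases in these windows 155 were identical (81.6%). The core bound by ETS-family factors, GGAA on either strand, was present 4 times in each window, and in 89.2% of 32514 windows of the same length and place. Both windows held GGAACTTCC, a GGAA core followed after a further base by the same core on the opposite strand, 103 bases before the start. This motif was chosen after the sequences had been seen, and it was in 0.354% of all windows. It lies in a stretch that the aligned windows share, so its matches in Lyz1 and Lyz2 are not independent and that share is no test. The longer core AGGAAG, which overlaps GGAA, was found once in Lyz1, 99 bases before the start, and at 137 and 99 bases in Lyz2, against 23.9% of windows. TTNNGNAA, a loose form of the C/EBP motif, was found once in Lyz1 and not in Lyz2, against 32.2% of windows. The AP-1 motif TGANTCA was in neither window, against 5.55% of all. All motifs were searched on both strands, and a match is a description of letters only.

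The depth of the libraries is not given and was estimated. The levels are taken to be FPKM, which scales fragments to the length of the transcript and the size of the library. Steps between low values implied 18780000 to 24080000 fragments per library, in a search over a bounded range. The number of genes at 1 FPKM or higher did not overlap between the groups, at 9699 to 9770 in DMSO and 9195 to 9261 in BMH-21. Of 10 macrophage markers, 9 were at 1 FPKM or more in every library, among them the lineage factor Spi1 and the surface protein Adgre1. The exception was Mertk, at 0.0368 to 0.16 FPKM. None of 8 Paneth cell markers has a row in the table. Neutrophil markers summed to at most 0.492 FPKM, T cell markers to at most 0.0694, B cell markers to at most 0.0918 and fibroblast markers to at most 0.0649. The 4 epithelial markers Epcam, Krt8, Krt18 and Cdh1 set DMSO replicate 3 apart. Their sum was 0 and 0.088 FPKM in DMSO replicates 1 and 2, 9.66 FPKM in DMSO replicate 3, and 10.9 to 13.9 FPKM in the BMH-21 libraries.

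Lyz2 was the most abundant mRNA of every library. Its level was 9210, 9634 and 9568 FPKM in DMSO replicates 1 to 3, and 17915, 16726 and 17867 FPKM in BMH-21 replicates 1 to 3. The groups did not overlap, and the lowest treated library was 1.74-fold above the highest control. The group means were 9471 ± 228 and 17503 ± 673 FPKM (SD, n = 3), a ratio of 1.85. On the log2(FPKM + 1) scale the difference, BMH-21 minus DMSO, was 0.89.

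Lyz1 differed more between the groups. Its level was 2778, 2918 and 2911 FPKM in DMSO replicates 1 to 3, and 9773, 8921 and 9619 FPKM in BMH-21 replicates 1 to 3. The groups did not overlap here either, and the lowest treated library was 3.06-fold above the highest control. The means were 2869 ± 78.8 and 9438 ± 454 FPKM (SD, n = 3), a ratio of 3.29 and a difference of 1.72 on the log2 scale. The Lyz1 range in BMH-21, 8921 to 9773 FPKM, took in the Lyz2 range of the controls. In both genes BMH-21 replicate 2 was the lowest treated library and DMSO replicate 1 the lowest control.

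**Figure D1:**
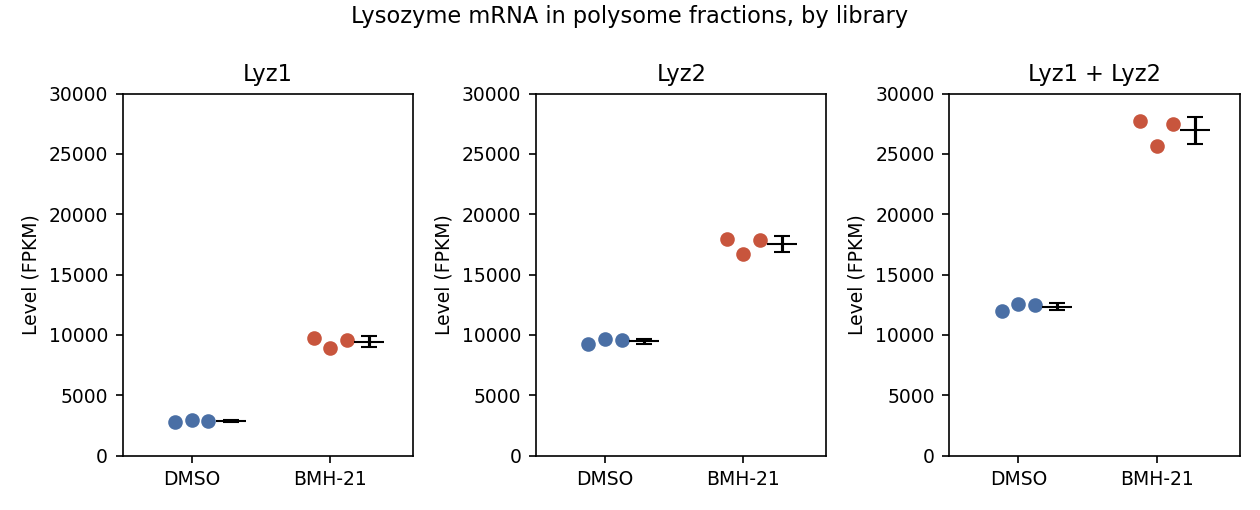
Level of Lyz1, of Lyz2 and of their sum in FPKM (vertical axis from 0) in each of 3 DMSO and 3 BMH-21 libraries (points), with the group mean and SD beside them in black. In all 3 panels every BMH-21 library lies above every DMSO library, and the sum goes from a mean of 12340 to 26941 FPKM.

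The rule for choosing the genes used this contrast, so nothing is read from their place among all genes, which was as follows. The test covered 9748 genes that reached 1 FPKM in 3 or more libraries, and both members passed that filter. Of these, limma called 78.3% at a Benjamini-Hochberg adjusted p of 0.05, 19.9% higher and 58.4% lower in BMH-21. Over these genes the median log2 difference was −0.23. Relative to it, Lyz1 stood at 1.95 and Lyz2 at 1.12. A larger log2 difference upward was measured for 25 genes in the case of Lyz1 and 203 genes in the case of Lyz2. In FPKM, the differences of Lyz2 (8032) and Lyz1 (6569) were the largest and the next largest of the table.

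Both lysozymes together held 3.49%, 3.70% and 3.68% of all FPKM in DMSO replicates 1 to 3. In BMH-21 replicates 1 to 3 the share was 7.51%, 6.93% and 7.36%. The mean share was 3.62% ± 0.115 and 7.27% ± 0.302 (SD, n = 3), a difference of 3.64 percentage points. Lyz2 alone went from a mean share of 2.78% to 4.72%, and Lyz1 from 0.842% to 2.55%. FPKM weights a gene by molecules rather than bases. With the GENCODE transcript lengths, the lysozymes were estimated to have taken 1.56% to 1.64% of the sequenced fragments in DMSO and 3.33% to 3.59% in BMH-21. With the estimated depths, these shares put at least 79680 fragments behind each Lyz1 value, for a counting error of at most 0.354%. The spread between replicates was wider than this counting error, with a coefficient of variation of 2.75% in DMSO and 4.81% in BMH-21 for Lyz1, and 2.41% and 3.85% for Lyz2. Among 603 genes with a mean of at least 100 FPKM, the median coefficient of variation was 3.28% in DMSO and 3.76% in BMH-21.

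**Figure D2:**
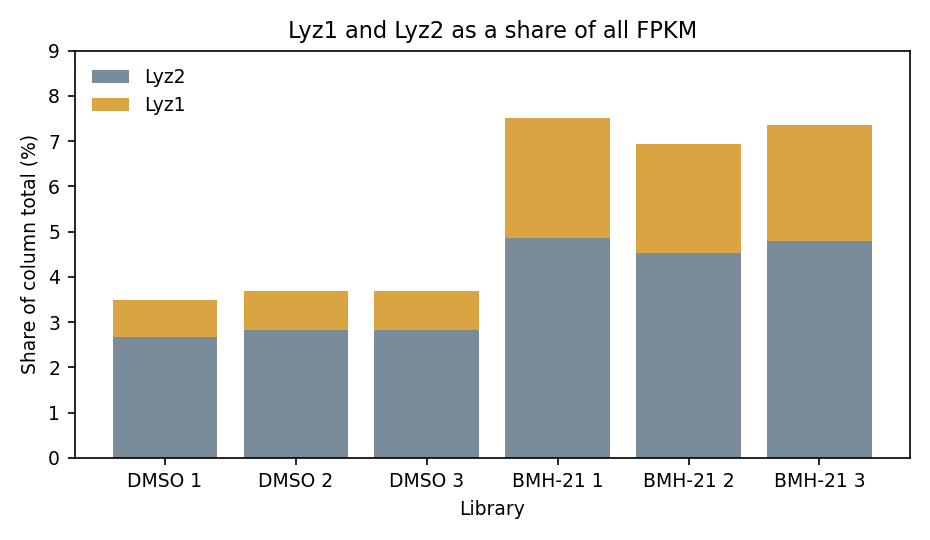
Lyz2 (grey) and Lyz1 (ochre) as a percentage of the summed FPKM of each library (vertical axis from 0), stacked. The DMSO stacks reach 3.49% to 3.70% and the BMH-21 stacks 6.93% to 7.51%.

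The summed FPKM of a library is not fixed, and it differed between the groups. Its mean was 340677 FPKM in DMSO and 370724 FPKM in BMH-21. Of this difference of 30048 FPKM, the lysozymes made up 14601 FPKM, or 48.6%. Without them the mean totals were 328337 and 343783 FPKM. Across the other genes, gains added up to 59682 FPKM and losses to −44236 FPKM. Because FPKM is relative to the library, neither the amount of lysozyme mRNA per cell nor the total RNA per cell was measured.

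The proportion of the paralogs also differed between the groups. The ratio of Lyz2 to Lyz1 was 3.32, 3.30 and 3.29 in DMSO replicates 1 to 3, and 1.83, 1.87 and 1.86 in BMH-21 replicates 1 to 3. Lyz1 thus made up 23.2% to 23.3% of lysozyme FPKM in the controls and 34.8% to 35.3% in the treated libraries. The ratio varied less among replicates than either level did, with a coefficient of variation of 0.432% in DMSO and 1.13% in BMH-21. On the log2 scale the Lyz1 difference exceeded the Lyz2 difference by 0.83. A scaling of whole libraries multiplies both genes alike and leaves the ratio as it is. How far the splitting of shared reads bears on the ratio was not tested.

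**Figure D3:**
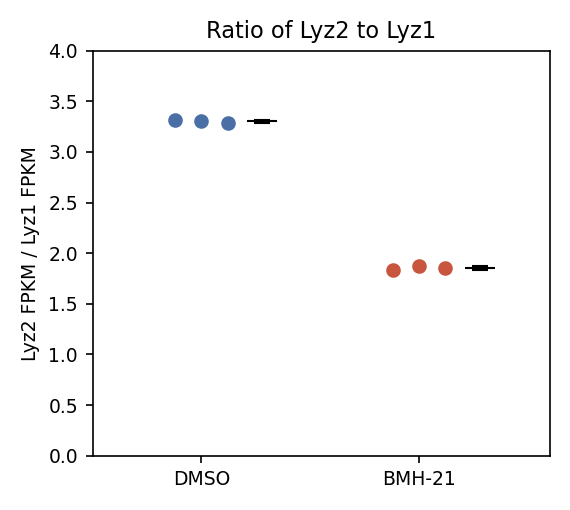
Ratio of Lyz2 FPKM to Lyz1 FPKM (vertical axis from 0) in each of 3 DMSO and 3 BMH-21 libraries (points), with the group mean and SD in black. The control libraries lie at 3.29 to 3.32 and the treated libraries at 1.83 to 1.87.

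The epithelial markers moved with the groups except in DMSO replicate 3, and their part in the lysozyme values was not tested. In that library, which held 9.66 FPKM of them, both lysozymes lay between DMSO replicates 1 and 2. Measured against DMSO replicate 3 alone the log2 difference was 1.70 for Lyz1 and 0.87 for Lyz2, and against DMSO replicates 1 and 2 it was 1.73 and 0.89. The 10 macrophage markers did not share a direction: in 5, Cd68, Cd14, Tyrobp, Spi1 and Itgam, every BMH-21 library lay above every DMSO library, and in 5, Adgre1, Fcgr1, Csf1r, Ptprc and Mertk, every one lay below. Differences between the groups were common, as limma called 19.9% of all tested genes higher and 58.4% lower. The share of all genes whose libraries did not overlap between the groups was not counted. Adgre1 was at 39.3 to 41.9 FPKM in DMSO and 22.3 to 23.3 FPKM in BMH-21. The sum of the list, 2283 to 2326 FPKM in DMSO and 3044 to 3160 FPKM in BMH-21, mainly reflects the abundant Cd68, Cd14, Tyrobp and Spi1. The part of these markers in the lysozyme values was not tested either. In bulk RNA a change in the number of cells of a type cannot be told apart from a change in RNA per cell.

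Lyz2 stood well above every other gene in the order of levels, and Lyz1 did not in the controls. In the DMSO libraries Lyz2 was followed by S100a4, a calcium-binding protein, at 3298 ± 114 FPKM, by Ptma, which encodes the nuclear protein prothymosin alpha, at 3174 ± 106 FPKM, and by Lyz1. The ranges of S100a4 (3167 to 3368) and Ptma (3098 to 3295) overlapped, whereas Lyz1 lay below both in all 3 libraries. Lyz1 lay above the next gene, Cst3, which encodes the secreted protease inhibitor cystatin C, at 2490 ± 3.41 FPKM. Cst3 was called higher in BMH-21 (limma log2 difference 0.37, adjusted p = 4.4e-05), a call lost with quantile normalization (−0.048, adjusted p = 0.5). In the BMH-21 libraries Lyz1 was second in each, ahead of S100a4 at 6031 ± 218 FPKM, without overlap. Lyz2 stood 2.74- to 3.02-fold above S100a4 in the controls and 2.67- to 3.07-fold above it in the treated libraries, so this ratio overlapped between the groups. S100a4 itself was called higher (limma log2 difference 0.87, adjusted p = 1.65e-07), a call that turned to lower with quantile normalization (−0.35). Ptma fell to 2024 ± 15.4 FPKM (limma log2 difference −0.65, adjusted p = 4.98e-07).

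**Figure D4:**
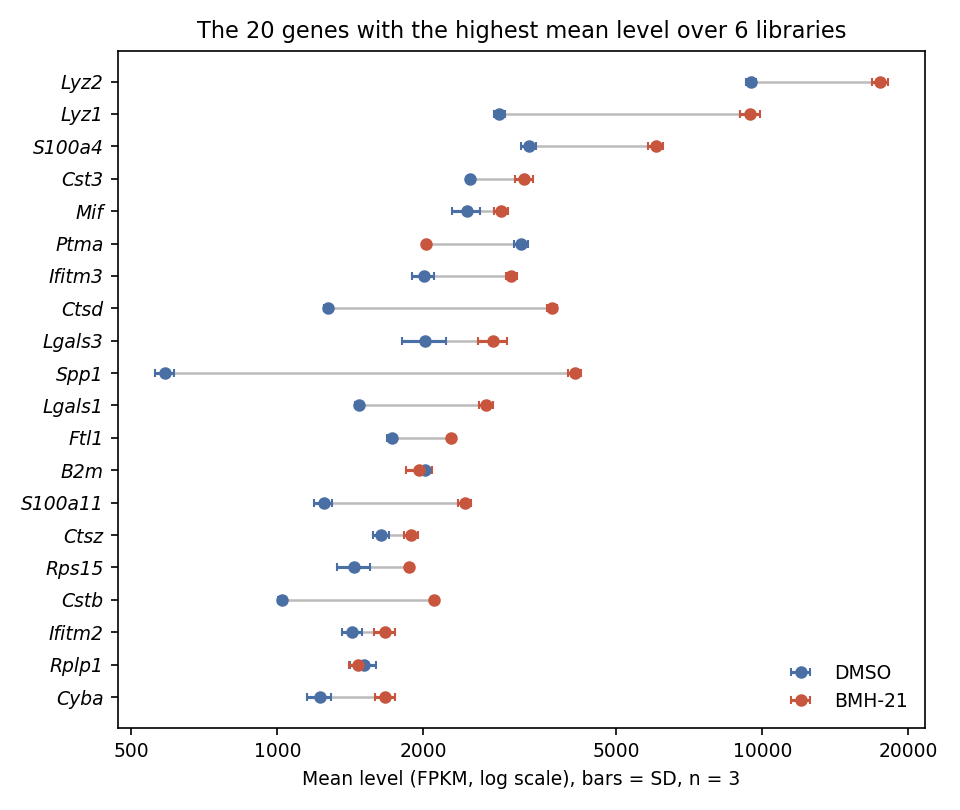
Mean level in FPKM (horizontal log axis) of the 20 genes with the highest mean over 6 libraries, in DMSO (blue) and BMH-21 (red), with SD bars over 3 libraries. Lyz2 is the highest gene in both groups, and Lyz1 goes from place 4 at 2869 FPKM to place 2 at 9438 FPKM.

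The lysozyme family has other members, but those with a row were near or at 0 here. Next to Lyz2, from 117232237 to 117238703, lies 9530003J23Rik, whose RefSeq synonym is Lyzf1. It was listed at 0 in 5 libraries and at 0.0316 FPKM in BMH-21 replicate 1. Lyzl4, a lysozyme-like gene best known from testis, was at 0 to 0.0946 FPKM in DMSO and 0.0686 to 0.126 FPKM in BMH-21. The other 7 family members sought have no row in the table.

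The genes around the pair did not share one direction. Within 500 kb on either side, 31 further genes are annotated, 14 have a row and 9 were tested. Of these 9, 1 rose and 4 fell, beside 19.9% called higher and 58.4% called lower among all tested genes. Cpsf6, the neighbour of Lyz1 and a factor of mRNA 3′ end formation, fell from 13.1 ± 0.274 to 7.4 ± 0.393 FPKM (limma adjusted p = 3.2e-07). Yeats4, a reader of acetylated histones on the Lyz2 side, was at 40.3 ± 1.21 and 38.4 ± 1.04 FPKM and did not pass (limma adjusted p = 0.14), though median-ratio scaling called it higher (0.22). Cct2, a chaperonin subunit, fell from 127 ± 4.7 to 51.8 ± 1.77 FPKM. Rab3ip, an exchange factor for Rab GTPases, fell from 7.49 ± 0.335 to 5.36 ± 0.252 FPKM, and the nucleoporin gene Nup107 from 2.4 ± 0.0699 to 1.65 ± 0.0858 FPKM. Both calls were lost with quantile normalization (limma adjusted p = 0.066 and 0.2). The gene that rose was Mdm2, which encodes the ubiquitin ligase that degrades p53, from 22.4 ± 0.806 to 40.7 ± 1.27 FPKM. Frs2, Slc35e3 and 4933412E12Rik did not pass, but Slc35e3 was called higher with median-ratio scaling (0.24) and Frs2 with quantile normalization (0.19).

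Likeness to each lysozyme was measured over the 6 libraries as the root mean square difference of centred log2(FPKM + 1) values, among 4970 other genes with a mean of at least 3 on that scale. In a design with 2 groups this mostly ranks genes by the size of the group difference. Closest to Lyz1 was Angpt2, which encodes angiopoietin 2, at 0.0218, with 5.37 ± 0.212 FPKM in DMSO and 20 ± 0.512 FPKM in BMH-21. The chemokine genes Ccl4 (0.0562), Ccl3 (0.0571) and Ccl6 (0.067) followed, and then Hmga2, an architectural chromatin protein (0.0693). Ccl3 went from 230 ± 6.92 to 768 ± 22.8 FPKM and Ccl4 from 84.9 ± 3.19 to 265 ± 12 FPKM. Closest to Lyz2 were Edem1, whose product sends misfolded glycoproteins to degradation (0.0234), the mitochondrial carrier gene Ucp2 (0.0236), cyclin Y, Ccny (0.0248), the ion channel gene Tmem38b (0.0323) and the scavenger receptor gene Msr1 (0.0326). Msr1, whose protein takes up modified lipoproteins and bacteria, went from 14.4 ± 0.324 to 26.8 ± 0.355 FPKM. The lysozymes were 0.416 apart from each other, and Lyz2 took place 111 in likeness to Lyz1 whereas Lyz1 took place 1561 in likeness to Lyz2.

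Peptidoglycan fragments leave the lysosome through transporters, are sensed in the cytosol by NOD receptors and signal through RIPK2, while TLR2 and CD14 sense wall components at the surface. Of 27 genes listed for these steps, 22 have a row and 19 were tested. Of these 4 rose and 10 fell, beside 19.9% higher and 58.4% lower among all tested genes, with a median log2 difference of −0.37 against −0.23 for all tested genes. With median-ratio scaling 8 were higher and 9 lower, at a median of −0.09. Naaa, counted in the list, encodes a lysosomal amidase of lipid amides and not of peptidoglycan. It fell from 29.2 ± 0.637 to 10.1 ± 0.258 FPKM (limma log2 difference −1.45, adjusted p = 1.9e-09). Tlr2 fell from 24.9 ± 0.945 to 11.6 ± 0.0908 FPKM, the adaptor gene Tab1 from 10.8 ± 0.459 to 5.66 ± 0.164 FPKM and Birc3, a ubiquitin ligase of NF-kB signalling, from 15.2 ± 0.914 to 8.01 ± 0.205 FPKM. Cd14 went the other way, from 359 ± 1.2 to 537 ± 6.6 FPKM (limma log2 difference 0.58, adjusted p = 2.4e-07). The others of the 4 that rose were Slc15a3, Xiap and Map3k7. These 4 were named after their values had been seen. The receptor genes Nod1 and Nod2 were under the filter, at 0.581 and 0.95 FPKM in DMSO and at 0.187 and 0.454 FPKM in BMH-21.

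Among other antimicrobial and granule genes, 11 of 26 were tested, and 3 rose and 7 fell (median −0.38), beside 19.9% higher and 58.4% lower among all tested genes. Median-ratio scaling gave 3 higher and 5 lower. Cybb, the catalytic subunit of the phagocyte NADPH oxidase, fell from 32.3 ± 0.726 to 18 ± 0.355 FPKM, and its cytosolic partner Ncf4 from 97.4 ± 2.87 to 69.9 ± 2.43 FPKM. Mpeg1, a pore-forming protein of macrophages, rose from 43 ± 0.641 to 60.3 ± 1.83 FPKM (limma log2 difference 0.48, adjusted p = 1.6e-06). The granule genes Mpo, Ctsg, Ltf and Camp, and 6 others of the list, have no row. A gene without a row has no measured level. Of the granule genes with a row, Elane was at 0 to 0.108 FPKM and Prtn3 at 0.0555 to 0.321 FPKM. Lcn2 was at 0.406 to 0.556 FPKM in DMSO and 0.152 to 1.94 FPKM in BMH-21. Slpi was tested and not called, at 2.94 ± 0.781 and 4.27 ± 2.9 FPKM.

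A list of 26 transcription factors held those of the myeloid lineage and of lysosomal genes, with broadly acting factors such as Ctcf, Sp1, Usf1 and Usf2. Of these 26, 22 were tested, and 4 rose and 16 fell (median −0.29), against 19.9% and 58.4% of all tested genes. With median-ratio scaling 5 were higher and 8 lower. Klf4, a factor of alternative activation, fell from 28.9 ± 0.627 to 6.15 ± 0.499 FPKM, the C/EBP family gene Cebpg from 29.5 ± 0.82 to 14.7 ± 0.537 FPKM, the insulator protein gene Ctcf from 6.32 ± 0.392 to 3.18 ± 0.104 FPKM and Irf8 from 16.2 ± 0.6 to 10.5 ± 0.216 FPKM. Spi1, which encodes PU.1, the ETS factor of the macrophage lineage, was at 285 ± 6.7 and 347 ± 8.16 FPKM and was called higher (limma log2 difference 0.28, adjusted p = 7.2e-05). Cebpb, a C/EBP factor of activated macrophages, varied between control libraries, at 53.4, 81.6 and 126 FPKM in DMSO replicates 1 to 3 against 172 to 200 FPKM in BMH-21, and was called higher (limma log2 difference 1.18, adjusted p = 0.000942). The other C/EBP genes of the list did not all share that direction. Cebpa, at 35 ± 0.472 and 38.1 ± 1.61 FPKM, was also called higher (limma log2 difference 0.12, adjusted p = 0.026). That call held with median-ratio scaling (0.41), upper-quartile scaling (0.35) and quantile normalization (0.23). It was lost with column totals made equal (−0.0011) and with totals made equal without the lysozymes (0.053). Cebpe fell from 21.8 ± 1.1 to 11.7 ± 1.51 FPKM, and Cebpd, at 9.41 ± 0.823 and 7.66 ± 0.431 FPKM, was called lower but not with median-ratio scaling. Mitf, the last of the 4 that rose, went from 5.24 ± 0.175 to 8.9 ± 0.673 FPKM (limma log2 difference 0.66, adjusted p = 2.8e-06). Spi1, Mitf, Cebpa, Cebpb, Cebpd and Cebpe were named after their values had been seen.

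Of 35 genes for other products of the lysosome and the secretory route, 34 were tested, and 16 rose and 10 fell (median 0.01), against 19.9% and 58.4% of all tested genes. Which direction held the majority depended on the scaling. Median-ratio scaling gave 23 higher and 8 lower, column totals made equal gave 12 and 15, and totals made equal without the lysozymes gave 13 and 13. Spp1, which encodes osteopontin, rose from 585 ± 26.6 to 4099 ± 127 FPKM, the lysosomal protease gene Ctsd from 1270 ± 20.1 to 3684 ± 87 FPKM and the glycoprotein gene Gpnmb from 354 ± 5.56 to 855 ± 29.6 FPKM. Ctsd was thus the nearest of these to Lyz1 in the size of its difference (1.54 against 1.72 on the log2 scale).

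Lysozyme enters the endoplasmic reticulum through the signal peptide machinery. Of 25 genes for signal recognition, translocation and signal peptide cleavage, all were tested, and 11 rose and 12 fell (median 0.07), against 19.9% and 58.4% of all tested genes. With median-ratio scaling 14 were higher and 9 lower, and with column totals made equal 7 were higher and 12 lower. Srpr, the receptor of the signal recognition particle, fell from 64 ± 2.09 to 29.8 ± 0.728 FPKM. The particle subunits Srp68 and Srp72 fell from 28.6 ± 0.315 to 17.1 ± 0.749 FPKM and from 26.1 ± 0.243 to 17.2 ± 0.538 FPKM, and the channel subunit Sec61a1 from 27.1 ± 1.05 to 19 ± 0.445 FPKM. Srp54a, Srp54b and Srp54c were also called lower. Other subunits of the same complexes, Srp9, Srp14, Srp19, Srprb, Sec61b and Sec61g, were called higher. Of these, Srp14 rose from 129 ± 4.82 to 173 ± 3.34 FPKM (limma log2 difference 0.42, adjusted p = 6.4e-06). The calls of Srp19, Srprb and Sec61b were lost with column totals made equal. These further subunits were named after their values had been seen. Of 15 genes listed for disulfide formation, 2 rose and 11 fell (median −0.30), against 19.9% and 58.4% of all tested genes, or 5 and 6 with median-ratio scaling. The 2 that rose were Tmx1 and Hspa5, a chaperone gene counted in the list whose product does not itself make disulfides. The Tmx1 call was lost with column totals made equal. Ero1l, the gene of an oxidase that makes disulfides, fell from 94.4 ± 2.93 to 35.5 ± 0.639 FPKM (limma log2 difference −1.39, adjusted p = 1.9e-09). The disulfide isomerase gene P4hb fell from 262 ± 10.6 to 147 ± 3.36 FPKM, the peroxiredoxin gene Prdx4 from 63.2 ± 0.704 to 35 ± 1.64 FPKM and the sulfhydryl oxidase gene Qsox1 from 5.2 ± 0.241 to 3.08 ± 0.122 FPKM.

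**Figure D5:**
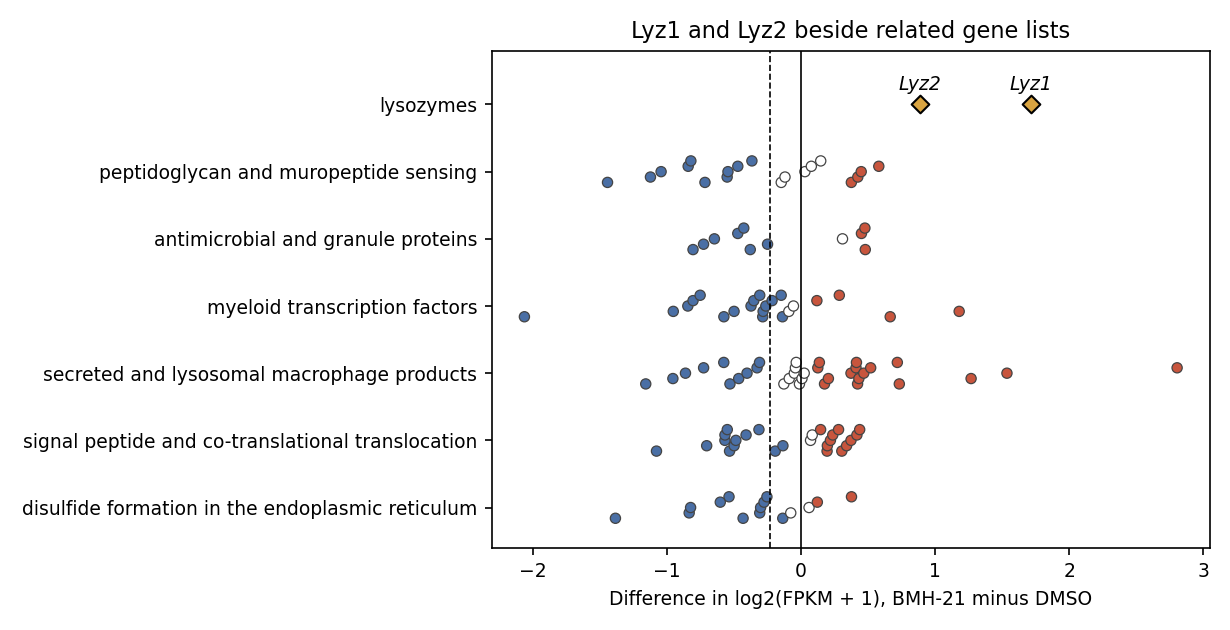
Difference in log2(FPKM + 1), BMH-21 minus DMSO (horizontal axis), for Lyz1 and Lyz2 (diamonds, no test) and for each tested gene of 6 related lists (red called higher, blue called lower, open not called). The dashed line marks the median of all tested genes, −0.23, and Lyz1 at 1.72 lies above every listed gene except Spp1.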

How the data were processed

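One deposited table held a column for each of the 6 libraries. Groups and replicate numbers came from the sample titles. The authors deposited FPKM values, already scaled by transcript length and library size; the unit was read from the values, since no header or label names it. The submitters' processing notes name Trimmomatic (version 0.38), HISAT2, SAMtools and the mm10 build. Read length, counting tool, annotation and the handling of shared reads are not stated in these sources. Gene positions, transcripts and lengths are those of GENCODE M21 (GRCm38, the assembly mm10 is made from), and upstream windows those of the RefSeq promoter table (GRCm38.p6).

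Depth was estimated from the steps of low values of single-transcript genes, over a bounded range; its upper end was lowered after a wider search gave one library a multiple of this value. Only 75.4% to 77.5% of these values lay within 0.01 of whole reads, too few to recover counts, so no count model was run. limma 3.58.1 (R 4.3.3, intensity trend, Benjamini-Hochberg at 0.05) was fitted to log2(FPKM + 1) of the 9748 genes (50.7% of rows) with 1 FPKM or more in 3 or more libraries. This scale understates the change of low genes. The labels do not call the replicates separate cultures, and the p-values then reflect only the spread between these libraries, which may be technical.

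The members, the gene lists and the tests were chosen with earlier results of these data known. Named genes were Lyz1 and Lyz2, up to 4 called genes of each list with the lowest adjusted p, family members in the table, the 5 most alike genes per lysozyme, genes next to them in level, and genes within 500 kb. Some genes that this rule names are not reported here. Lyz1 and Lyz2 are near-identical copies and their split is uncertain. So are overlapping and antisense genes, because the library kit is not stated to mark strand. Scaling, pseudocount, filter, trend, replicate block and left-out libraries were varied.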

Additional observations from a re-analysis of the deposited data

How the results depend on the processing

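The 16 alternatives covered scaling, pseudocount, filter, trend, replicate block, single libraries left out and the lysozymes summed. The Lyz1 difference of 1.72 was 1.59 with column totals made equal, 1.65 with totals made equal without Lyz1 and Lyz2, 2.01 after median-ratio scaling, 1.95 after upper-quartile scaling and 0.70 after quantile normalization. The Lyz2 difference of 0.89 was 0.76, 0.82, 1.18, 1.12 and 0 under the same settings. Quantile normalization gives the top gene of every library the same value, so Lyz2, first in all 6, has a difference of 0 by construction. Summed to 1 row, the lysozymes differed by 1.13. Leaving out 1 library gave 1.69 to 1.76 for Lyz1, 0.87 to 0.92 for Lyz2, and 3.52 to 3.81 percentage points for the summed share.

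Called genes numbered 7628, and 7015 to 8510 under the alternatives, with 7306 to 7441 when 1 library was left out. The 1938 higher and 5690 lower calls became 3724 and 3442 with median-ratio scaling, which moved the all-gene median by 0.24, 3349 and 3883 with upper-quartile scaling (0.20), and 3517 and 3498 with quantile normalization (0.24). With totals made equal they were 1389 and 6623. Without a filter, 8510 of 19233 genes were called. Same-numbered libraries of the groups did not deviate together (correlations of −0.112, −0.094 and −0.064), and with the replicate block 7502 genes were called.

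Of 46 named genes besides the lysozymes, 38 kept direction and call under every alternative that tested them, 2 kept their sign but changed their call with quantile normalization (Rab3ip, −0.12, and Nup107, −0.076), and 6 turned sign. S100a4 turned to −0.35 and Cst3 to −0.048 with quantile normalization. The other 4 had not been called. With median-ratio scaling, upper-quartile scaling and quantile normalization Frs2 was at 0.086, 0.043 and 0.19, Yeats4 at 0.22, 0.16 and 0.032, and Slc35e3 at 0.24, 0.19 and 0.24. 4933412E12Rik was at −0.055 with totals made equal and −0.022 with totals made equal without the lysozymes, and between −0.029 and 0.072 when 1 library was left out (−0.029 without DMSO replicate 1, −0.018 without BMH-21 replicate 2).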
